A study of Sus scrofa with 8 samples.

Results

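The renin-angiotensin system genes examined here were AGT, ACE, ENPEP, MME, AGTR1, AGTR2, MAS1 and ATP6AP2, taken by symbol from the table of all genes, and all 8 were among its 18975 rows. The RNA came from the hearts of male pigs of 6 months of age. TH and TL were Tibetan pigs, a breed native to the plateau, kept in the highlands (Linzhi, Tibet) or in the lowlands (Beijing). YH and YL were Yorkshire pigs kept at the same places, so altitude and place cannot be told apart. There were 2 RNA-seq libraries per group, each from pooled RNA of 4 pigs, so every p-value below measures a spread between pools rather than between animals. Levels are FPKM, fragments counted per kilobase of transcript and scaled to the mapped fragments of the library, as the authors computed them.

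In this system angiotensinogen, the product of AGT, is cut to angiotensin I, and ACE, the angiotensin converting enzyme, turns it into angiotensin II. Angiotensin II raises blood pressure and promotes growth and fibrosis of the heart, mainly through the receptor encoded by AGTR1, whereas the receptors of AGTR2 and MAS1 are known for opposing actions. ENPEP encodes aminopeptidase A, which trims angiotensin II to angiotensin III, MME encodes neprilysin, which degrades angiotensin and natriuretic peptides, and ATP6AP2 encodes a membrane receptor of the system that is also an accessory subunit of the vacuolar proton pump.

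Between 15687144 and 26721951 reads per library fell on genes. The 6 heart muscle markers that were listed, of 8 sought, were above 1 FPKM in all libraries and summed to 18700 to 34300 FPKM in 7 libraries and to 12200 in YL2. The library YL2 stands apart. Its 16 listed kidney markers summed to 5040 FPKM, against 1.34 to 17.8 in the other libraries, where 14 of the 16 were below 1 FPKM. Heart levels are therefore given for the other 7 libraries, with YL2 beside them, and YL is then the single library YL1, which the model assumes to vary like the other groups. The sum of 5 atrial markers was 6620 and 5380 FPKM in TH1 and TH2 and 609 to 2610 in the other 5 heart libraries. Of these, NPPA, the precursor of atrial natriuretic peptide, was at 2260 and 2150 FPKM in TH and at 23.1 to 108 elsewhere. MYL7 and SLN were also highest in TH. Of the 7 libraries, however, TL2 held the most MYL4 (21.4 FPKM) and TL1 the most NR2F2 (6.87). In bulk tissue, fewer cells of a type and less RNA per cell cannot be told apart.

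AGT (ENSSSCG00000010184, chr14:64380783-64389549 of Sscrofa10.2) was the most abundant member in 6 of the 7 libraries. Its level was 53.1 (TH1) and 41.7 FPKM (TH2), 70.4 (TL1) and 94.3 (TL2), 80.2 (YH1) and 70.9 (YH2), and 28.4 in YL1 and 27.7 in YL2. YL1 lay below the other heart libraries, TH was intermediate, and the ranges of TL and YH overlapped. YL2 was at a like level, but it holds kidney transcripts and adds no support for the heart. The mean over 7 libraries was 62.7 ± 22.9 FPKM (SD), at percentile 94.9 of all genes listed.

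ATP6AP2 (ENSSSCG00000012247, chrX:40369353-40398502) followed AGT in 6 libraries and exceeded it in YL1. It was the steadiest member, with 37.9 (TH1) and 39.7 FPKM (TH2), 29.0 (TL1) and 29.0 (TL2), 30.8 (YH1) and 32.4 (YH2) and 34.5 in YL1. The highest of the 7 values was 1.37 times the lowest. YL2 held 74.7 FPKM, above all the others.

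ACE (ENSSSCG00000017296, chr12:15381356-15401198) had 3.38 (TH1) and 5.93 FPKM (TH2), 9.50 (TL1) and 9.56 (TL2), 7.89 (YH1) and 10.4 (YH2), 4.64 in YL1 and 60.4 in YL2. TH and YL1 were low and did not overlap with TL and YH, and YL2 was 13.0 times YL1. The 7 endothelial markers, of a cell type rich in this enzyme, summed to 155 (TH1) and 197 FPKM (TH2), 160 (TL1) and 177 (TL2), 157 (YH1) and 179 (YH2) and 109 in YL1. That sum was lowest in YL1, as ACE was low there, while in TH2 it was highest; its part in the ACE levels was not tested.

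MME (ENSSSCG00000011723, chr13:103030829-103128284) was the lowest of the 6 members tested in all 7 libraries and had the widest range, 11.4-fold. TH1 and TH2 held 0.447 and 1.04 FPKM, against 4.23 (TL1), 3.49 (TL2), 5.10 (YH1), 3.31 (YH2) and 4.33 in YL1. Both TH libraries were below every other one. They rested on 27 and 54 reads, and the remaining 5 on 173 to 314. Scaled to the library total only (reads per 1000000 reads on genes, without the transcript length that enters FPKM), MME had 1.01 and 3.44 in TH and 8.81 to 16.0 in the other 5. YL2 held 160 FPKM from 14116 reads.

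ENPEP (ENSSSCG00000009132, chr8:119968857-120061196) had 15.7 (TH1) and 12.2 FPKM (TH2), 8.37 (TL1) and 13.1 (TL2), 8.31 (YH1) and 6.77 (YH2) and 13.9 in YL1. TH and YH did not overlap, and TL reached into TH. The order depended on the scale. In reads per 1000000 reads on genes ENPEP had 4.86 in TH1, the lowest of the 7, although TH1 was the highest in FPKM, and TL2 was the highest. One ENPEP read was worth 0.121 FPKM in TH1, 0.113 in YL1 and 0.0544 to 0.0795 in the other 5 heart libraries. Over all 8 libraries this worth differed by 2.73 times for ENPEP and by 1.79 to 2.04 times for the other members tested.

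AGTR1 (ENSSSCG00000011695, chr13:96933072-96978416), the receptor through which angiotensin II mainly acts, had 7.91 (TH1) and 8.93 FPKM (TH2), 11.2 (TL1) and 9.49 (TL2), 5.69 (YH1) and 7.52 (YH2) and 9.49 in YL1. In FPKM, YH was the lowest group and did not overlap with the others, but in reads per 1000000 reads on genes YH1 and YH2 (11.3 and 12.2) overlapped with TH, where TH1 had 11.7. YL2, at 6.00 FPKM, fell within the YH range.

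AGTR2 (ENSSSCG00000012600, chrX:109822525-109826790) and MAS1 (ENSSSCG00000004045, chr1:9326799-9327777) were at 0 reads in 6 of 8 libraries each. AGTR2 had 1 read in TL2 and 3 in YL2, and MAS1 had 1 read in YH2 and 2 in YL2. A count of 0 allows up to 3 reads, or 0.112 to 0.191 per 1000000 reads on genes, so a lower level was not detectable at this depth. These limits cover counting error only. Both were left out by the filter on low values, and 6 of 8 members were tested.

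**Figure D1:**
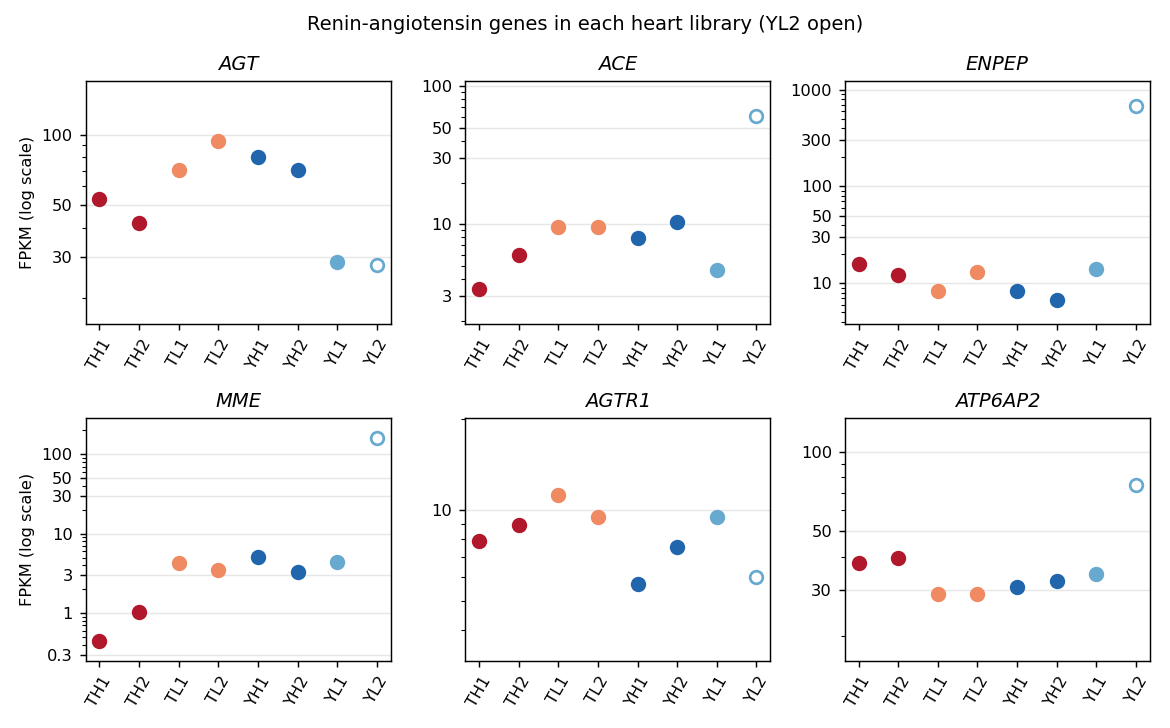
FPKM (log scale, a separate range per panel) of the 6 members tested in each library, with 1 point per library; colours mark the groups and the open point is YL2. Both TH libraries are lowest for MME (0.447 and 1.04 FPKM), and YL1 is the lowest heart library for AGT (28.4). YL2, which holds kidney transcripts, is at 27.7 for AGT and lies far above the rest for ENPEP, MME and ACE.

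The levels, which are per length, can be ordered across members. The place of ENPEP is less certain than the others, since 1 of its reads was worth 0.0443 to 0.121 FPKM across the 8 libraries. The order ran AGT, ATP6AP2 (exchanged in YL1) and then ENPEP, AGTR1 and ACE in changing places, with MME last, and 5 different orders occurred in the 7 libraries. Over the 7 libraries the means of ENPEP (11.2 ± 3.39 FPKM), AGTR1 (8.61 ± 1.76) and ACE (7.33 ± 2.72) differed between neighbours by less than the larger SD of the pair. AGT made up 29.8 to 59.3% of the summed FPKM of the members, and 2.74% in YL2, where ENPEP took 67.4%.

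The first comparison asks how the breeds differ in the highlands (TH to YH). MME was 5.65-fold lower in TH, whose libraries themselves differed by 2.32 times. The log2 fold change was -1.58 ± 0.27 (SE) on the log2(FPKM + 1) scale, which understates changes of low genes. The 95% interval was -2.23 to -0.93. Its adjusted p was 0.0529 in limma, short of the threshold of 0.01, and ranged from 0.0136 to 0.328 over 16 settings without YL2. ACE (-0.87 ± 0.27, adjusted p = 0.139 in limma) and AGT (-0.67 ± 0.23, 0.169) were lower in TH, and ENPEP higher (0.81 ± 0.26, 0.150), in each case without overlap of the groups and without passing the test. The differences of AGTR1 (0.32 ± 0.20) and ATP6AP2 (0.29 ± 0.17) were smaller. On scaled reads in place of FPKM, MME was at -2.26 (adjusted p = 0.0485 in limma), ACE at -1.28, AGTR1 at 0.71, ATP6AP2 at 0.54, ENPEP at 0.51 and AGT at -0.45, with adjusted p of 0.120 to 0.378 for the last 5, so the order of the smaller differences depended on the scale.

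None of the 6 members was called in TH to YH by limma, where 0.0512% of all genes were, and 4 of 6 had an unadjusted p under 0.05, as had 22.9% of all genes. MME was the only member with groups that did not overlap and a ratio over 2. Among all genes 8.41% were lower in TH by that measure and 6.43% higher. The median log2 fold change of the 6 members was -0.19, and of all genes -0.03. The summed atrial markers were higher in both TH libraries than in every other one. Singly this held for NPPA, MYL7 and SLN, but not for MYL4 or NR2F2. The 3 red cell markers also summed highest in TH (3090 and 1630 FPKM). They summed to 631 to 1400 in the other 5 heart libraries and to 523 in YL2. The part of the atrial and red cell markers in the low MME, ACE and AGT of TH was not tested.

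In the lowlands (TL to YL) the breeds differed most in AGT. It was 2.90-fold higher in TL than in YL1, a log2 fold change of 1.49 ± 0.29 with a 95% interval of 0.79 to 2.18 (adjusted p = 0.187 in limma, 0.0699 to 0.614 over 15 settings). With YL2 included the value was 1.51 ± 0.24 (adjusted p = 0.160 in limma), a value that includes the kidney transcripts of that library and adds no support for the heart. ACE was 2.06-fold higher in TL than in YL1 (0.90 ± 0.33, adjusted p = 0.464), but the sign turned with YL2 included (-0.82 ± 0.97). MME, ENPEP, AGTR1 and ATP6AP2 differed by -0.14 ± 0.33, -0.38 ± 0.32, 0.11 ± 0.25 and -0.24 ± 0.21, and their 95% intervals include 0.

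Limma called 0 members in TL to YL, beside 0.0256% of all genes, and 2 of 6 had an unadjusted p under 0.05, beside 9.74% of all genes. AGT and ACE did not overlap and passed a ratio of 2, both higher in TL, as did 7.58% of all genes. No member was lower in TL in that way, and 4.48% of all genes were. The median log2 fold change was -0.01 for the members and 0.05 for all genes. Marker sums of other cell types were also lowest in YL1 and YL2 of the 8 libraries. This held for endothelial cells (109 and 108 FPKM, 155 to 197 in the others), pericytes and smooth muscle (173 and 91.8, 195 to 272) and red cells (631 and 523, 1030 to 3090). Singly, PECAM1 and CLDN5 were lowest in YL, but VWF, KDR, TEK, EMCN and TIE1 were lowest in TH1. ACTA2 and CSPG4 were lowest in YL, but RGS5, NOTCH3 and MYH11 were lowest in TH1. KCNJ8 was higher in YL1 (82.4 FPKM) than in TL (71.5 and 80.8). The 6 fibroblast markers summed to 805 and 626 FPKM in TL and to 268 and 225 in YL, with 194 and 684 in TH and 315 and 385 in YH. The sums of YL2 are those of a library with kidney transcripts, so for the heart only YL1 counts. The part of these cell types in the low AGT of YL1 was not tested.

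The third comparison sets highland against lowland within the Tibetan breed (TH to TL). MME was 5.19-fold lower in TH (-1.50 ± 0.27, adjusted p = 0.0860 in limma, 0.021 to 0.497 over 16 settings), against the same low TH libraries as above, since both comparisons share them. ACE was 2.05-fold lower in TH (-0.93 ± 0.27, adjusted p = 0.169) and AGT was lower as well (-0.78 ± 0.23, 0.180). ATP6AP2 was at 38.8 ± 1.23 FPKM in TH and 29.0 ± 0.0204 in TL, a log2 fold change of 0.41 ± 0.17 (adjusted p = 0.288). ENPEP (0.37 ± 0.26) and AGTR1 (-0.27 ± 0.20) had 95% intervals that include 0, and on reads ENPEP was at -0.09.

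The ACE values of TH rested in part on TH1. Without TH1 its difference from TL was -0.60 and without TH2 -1.26, and for TH to YH the same values were -0.54 and -1.20. Of the 7 endothelial markers 5 were lowest of the heart libraries in TH1, among them VWF (1.07 FPKM, against 10.4 to 25.9), and PECAM1 (96.8) and CLDN5 (32.7) were highest there. TH1 and YL1, the libraries lowest in ACE, also had the highest FPKM sums of the 7 (8559100 and 4017850, against 2032070 to 3444730) and the fewest genes at 1 FPKM or more (10233 and 10661, against 10932 to 11242). Of the 7, AGT was also lowest in YL1 (28.4 FPKM), on which every comparison with YL rests, and MME was lowest in TH1 (0.447). The part of these differences in the ACE, AGT and MME levels was not tested. In TH to TL MME kept its direction without either TH library, at -1.25 without TH1 and -1.74 without TH2. In TH to YH these values were -1.33 and -1.82.

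In TH to TL limma called 0 members and 0.111% of all genes, and an unadjusted p under 0.05 was found for 4 of 6 members and 17.3% of all genes. ACE and MME did not overlap and passed a ratio of 2, both lower in TH. For all genes these shares were 5.66% lower and 4.9% higher in TH. The medians were -0.52 for the members and -0.02 for all genes.

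Within the Yorkshire breed (YH to YL) AGT was 2.66-fold higher in the highlands, at 75.5 ± 6.60 FPKM in YH and 28.4 in YL1. The log2 fold change was 1.38 ± 0.29 (adjusted p = 0.436 in limma, 0.128 to 1.0 over 15 settings) and 1.39 ± 0.24 with YL2 (adjusted p = 0.582). The same YL libraries enter here as in TL to YL. ACE was at 0.84 ± 0.33 without YL2 and -0.88 ± 0.97 with it. ENPEP was at -0.81 ± 0.32, while AGTR1 (-0.48 ± 0.25), ATP6AP2 (-0.12 ± 0.21) and MME (-0.06 ± 0.33) had 95% intervals that include 0. On scaled reads AGTR1 was at -0.88 ± 0.31 (adjusted p = 0.781 in limma) and ENPEP at -0.51 ± 0.40 (0.909).

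In YH to YL limma called 0 members and 0% of all genes, and 3 of 6 members and 5.41% of all genes had an unadjusted p under 0.05. AGT alone passed a ratio of 2 without overlap, higher in YH, as did 6.64% of all genes, and 2.2% of all genes were lower in YH. The medians were -0.09 and 0.06. Each comparison with YL rests on the single library YL1, and an exact permutation test of 2 libraries against 2 cannot go below p = 0.333.

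**Figure D2:**
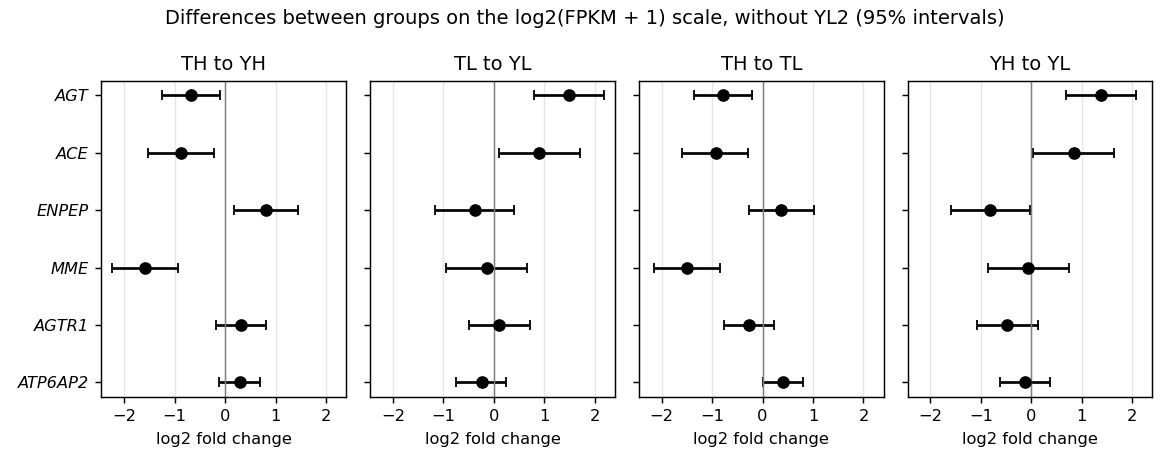
Log2 fold change on the log2(FPKM + 1) scale (x axis) of the 6 members tested in the 4 comparisons without YL2, first group over second; points are limma estimates and bars 95% intervals. MME lies near -1.5 in both comparisons with TH, and AGT lies at 1.49 and 1.38 in both comparisons with YL.

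The difference between the breeds in their response to altitude was tested directly, as TH to TL minus YH to YL. AGT gave -2.15 ± 0.37 (95% interval -3.05 to -1.26, adjusted p = 0.184 in limma, 0.0275 to 0.598 over 14 settings, with values of -3.07 to -1.95), with 0.53% of genes at a smaller p. In Tibetan pigs AGT was lower in the highlands, and in Yorkshire pigs it was higher there. ACE showed the same sign (-1.77 ± 0.42, adjusted p = 0.248), and so did MME (-1.44 ± 0.42, 0.299), which was low in TH alone. With YL2 included AGT was at -2.17 ± 0.34 (adjusted p = 0.198), whereas ACE was at -0.05 ± 1.37 and MME at 1.02 ± 1.92. ENPEP (1.18 ± 0.42), ATP6AP2 (0.53 ± 0.26) and AGTR1 (0.21 ± 0.32) had adjusted p of 0.350, 0.446 and 0.776 in limma, and ENPEP was at 0.42 on scaled reads.

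No member was called for this difference, beside 0.0598% of all genes, and 4 of 6 had an unadjusted p under 0.05 in limma, beside 12.9% of all genes. The median over the members was -0.62, and over all genes -0.06.

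**Figure D3:**
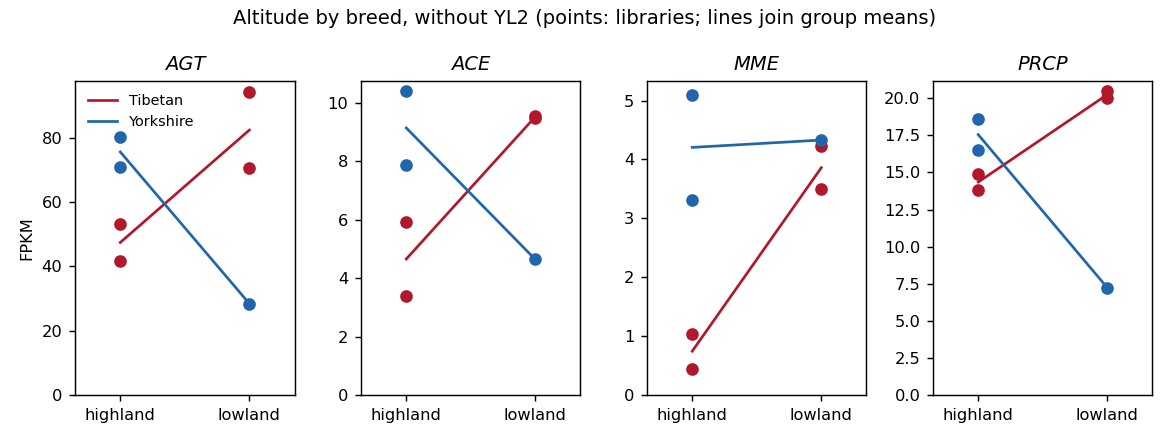
FPKM (y axis, from 0) of AGT, ACE, MME and the pathway gene PRCP in the highlands and lowlands, without YL2; points are libraries and lines join the group means of Tibetan (red) and Yorkshire (blue) pigs. The lines cross for AGT, ACE and PRCP, and for MME both TH libraries lie below the other 5.

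Of 20 other genes of the pathway, 14 were listed, in 15 rows, and 8 rows passed the filter. Limma called 0 of these 8 in each comparison, and an unadjusted p under 0.05 was found for 2 of them in TH to YH (22.9% of all genes), 2 in TL to YL (9.74%), 2 in TH to TL (17.3%), 1 in YH to YL (5.41%) and 1 for the difference between breeds (12.9%). The most abundant were CTSA, a lysosomal carboxypeptidase (61.6 FPKM on average), PREP, prolyl endopeptidase (19.5, and 9.33 in a second row on an unplaced scaffold), PRCP (15.9) and NR3C2, the mineralocorticoid receptor (8.05).

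PRCP, prolylcarboxypeptidase, which can cleave angiotensin II, was the pathway gene closest to AGT. It had 13.8 (TH1) and 14.9 FPKM (TH2), 20.0 (TL1) and 20.5 (TL2), 18.6 (YH1) and 16.5 (YH2) and 7.23 in YL1. YL1, whose FPKM sum was also high (its part was not tested), was lowest and TH next, as for AGT. Its log2 fold change was 1.37 ± 0.21 in TL to YL (adjusted p = 0.137 in limma), 1.17 ± 0.21 in YH to YL (0.358) and -1.64 ± 0.27 for the difference between breeds (0.184). YL2, at 25.4 FPKM, was above all other libraries, unlike AGT.

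ANPEP, aminopeptidase N, was at 0.984 and 1.71 FPKM in YH and at 0.061 to 0.422 in the other 5, from 4 to 36 reads. KLK1, BDKRB2 and DPP3 had at most 4, 13 and 4 reads in any of the 7 libraries, too few to order them.

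YL2 differed from the other libraries in part of the pathway. ENPEP was 43.2 times the highest of the other 7, MME 31.5 times, ACE 5.79 times and ATP6AP2 1.88 times, while AGT and AGTR1 were below the highest of the others. So 3 of the 6 members tested were over 2 times every other library, beside 5.99% of all genes. Among the 8 other pathway rows tested 1 was so, AGTRAP (28.4 FPKM). Counting rows below the filter, 6 of 15 were, beside 13.3% of all genes listed, among them KLK1 (272 FPKM) and ANPEP (107). All 16 listed kidney markers were also over 2 times their highest level elsewhere. The ratio of AGT to ACE was 6.13 to 15.7 in the heart libraries and 0.458 in YL2. The 7 liver markers, of the main source of circulating angiotensinogen, summed to 15.0 to 36.7 FPKM and 44.5 in YL2, and their part in the AGT levels was not tested.

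**Figure D4:**
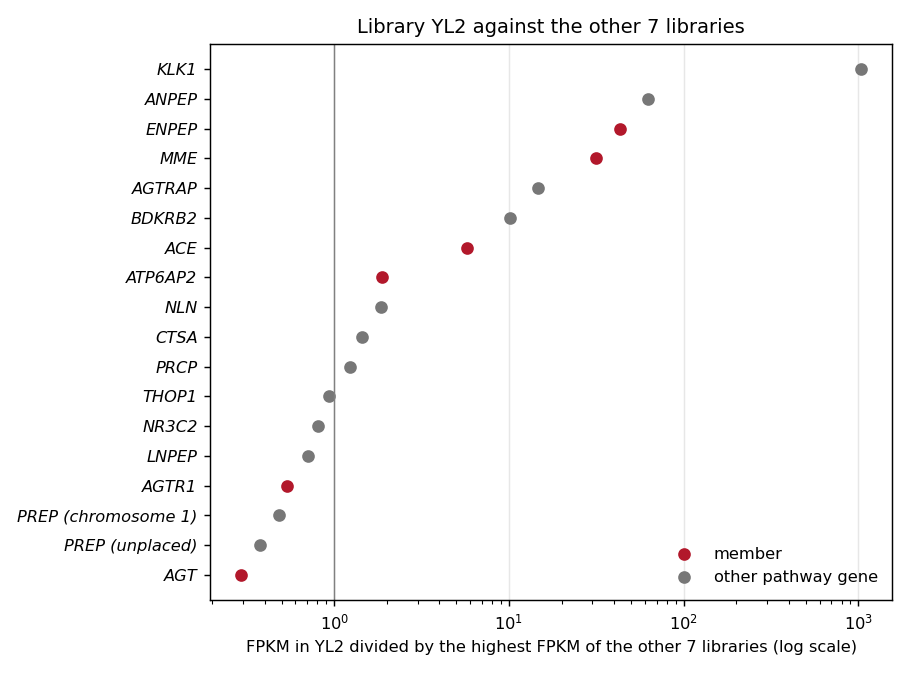
FPKM in YL2 divided by the highest FPKM of the other 7 libraries (x axis, log scale) for members (red) and other pathway genes (grey) with at least 10 reads in some library and a level above 0 outside YL2, except genes not reported here; the vertical line marks a ratio of 1. ENPEP (43.2), MME (31.5) and ACE (5.79) lie to the right with KLK1 and ANPEP, and AGT lies furthest to the left.

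Across the 7 libraries, which share groups and depth, Pearson's r of log2(FPKM + 1) was 0.71 between AGT and ACE, 0.65 between ACE and MME, -0.78 between ACE and ENPEP and -0.81 between MME and ATP6AP2. These are descriptions over 7 points. Among 5498 genes with a mean of at least 5 FPKM, the pattern of AGT was most like that of GABBR1 (r = 0.976), PHOSPHO1 (0.923) and PRCP (0.919). ACE was most like MYPN (0.984), C5ORF65 (0.982) and PMPCB (0.975), and MME was most like ECHDC3 (0.996), SDR39U1 (0.995) and ETFA (0.983).

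The genes most like ENPEP were PKD1 (0.986), MTCH1 (0.960) and SYT7 (0.954). Those most like AGTR1 were MGP (0.949), FLOT1 (0.934) and PER1 (0.921), and those most like ATP6AP2 were MBD3 (0.970), IGFBP2 (0.967) and CTSB (0.958). With Spearman's rho in place of r, 0 or 1 of the 3 genes stayed among the first 3 of each member, and with all 8 libraries 0 to 2 did.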

How the data were processed

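RNA-seq of pig heart was measured in 8 libraries, 2 per group. Per the paper's methods the authors sequenced paired ends on a HiSeq instrument, mapped them with TopHat (Sscrofa10.2), used Cufflinks for FPKM and DESeq for differential expression; the submitters' processing notes name Bowtie 0.12.5, TopHat2 2.0.9 and DESeq 1.10.1. The deposited table gives FPKM per library and a signal of reads scaled by 1 factor per library. Dividing this deposited signal by its step gave whole reads for 99.8% of low values (within 0.1 read), used for depth, reads per gene and 1 alternative. Column YL was taken by title, since its descriptions name another group.

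Members and lists were chosen with earlier results of these data known. The 11709 genes that reached 1 FPKM in 2 or more libraries were fitted with limma 3.58.1 (R 4.3.3, trend, a term per group) on log2(FPKM + 1) of 7 libraries, without YL2. The prior had 3.19 and the residuals 3 degrees of freedom. P-values were adjusted over all genes with the Benjamini-Hochberg method, and calls were made below an adjusted p of 0.01 where the log2 fold change was above 1 or below -1. The fit was tested on simulated data for TH to YH. There it recovered large changes, but not changes of about the size of that of MME. A member that was not called may therefore still differ. Pathway genes were named by the 5 highest mean levels and by groups that did not overlap with a ratio over 2; some genes of the list enter its counts but are not reported here by name; the 3 genes most like each member were those of highest r among genes with a symbol. Column averages and ratios of the authors were not used. Strand use in counting is not given in the sources used here. Figures were made with Python 3.11.15, pandas 2.3.3, numpy 2.4.6 and matplotlib 3.10.9. Alternatives are given in the closing section.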

Additional observations from a re-analysis of the deposited data

Results flagged for a closer look

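AGT and ACE differed in opposite directions with altitude in the 2 breeds, and with breed at the 2 altitudes, in every library of the 7 used. The test of that difference gave -2.15 for AGT (adjusted p = 0.184 in limma) and -1.77 for ACE (adjusted p = 0.248), neither past the threshold of 0.01. ATP6AP2 showed the same crossing with the opposite sign (0.53). Scaling by the FPKM sum gave -0.38 without the crossing. That scaling moved the median of all genes by -0.73 for this difference, so it cannot show that the crossing of ATP6AP2 is lost. ENPEP was higher in Tibetan pigs in the highlands and lower in the lowlands (1.18, adjusted p = 0.350 in limma). That value was 0.42 on scaled reads and 0.31 with scaling by the FPKM sum, and ENPEP in TL to YL was then at 0.085 and 0.36. The scaling by the FPKM sum moved the median of all genes by 0.63 in TL to YL and by -0.73 for the difference. Its values therefore cannot tell a change of ENPEP from that common shift.

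YL2, the library left out of the heart comparisons, held 60.4 FPKM of ACE, 681 of ENPEP and 160 of MME, each over 2 times the level in every other library.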

How the results depend on the processing

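Over the alternatives, 458 values of single members kept direction and side of the threshold, 23 reversed, and 5 kept their direction and passed the threshold only with YL2 in place of YL1, as did ACE with its sign reversed in TL to YL and YH to YL. That setting and the log2(scaled reads + 1) fit were chosen after seeing the data. The count of 458 is no measure of robustness. Many alternatives cannot move a fold change, such as leaving out a library of neither group compared. No member was called in the main fit either, so a kept side of the threshold says little. The planned edgeR tests with TMM and RLE were not run, because whole reads could not be recovered for all values. Depth limits MME in TH, AGTR2 and MAS1.

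Genes called numbered 6 in TH to YH, 3 in TL to YL, 13 in TH to TL, 0 in YH to YL and 7 for the difference between breeds, and lists of 5 counts below keep this order. With YL2 in place of YL1, TL to YL gave 302, YH to YL 303 and the difference between breeds 152, with 3, 3 and 1 members called (ENPEP, MME and ACE in the first pair). With all 8 libraries TL to YL gave 1, TH to TL 6 and the difference between breeds 4. An adjusted p under 0.05 gave 158, 7 and 46 in the first 3 comparisons. An unadjusted p under 0.01 gave 689, 283, 463, 148 and 424 genes and 1, 1, 1, 1 and 2 members. Without a filter the counts were 3, 22, 7, 18 and 25. Scaled reads gave 0, 1, 2, 1 and 1. Scaling by the FPKM sum without mitochondrial genes gave 27, 8, 30 and 4 in the 4 comparisons of groups. Median-ratio scaling gave 3 in TH to YH, a pseudocount of 0.1 gave 8 in TH to TL, and only the libraries compared gave 1 in YH to YL. Leaving out 1 library gave 1 to 411 genes in TH to YH (411 without TH2), 0 to 6 in TL to YL, 3 to 23 in TH to TL, 0 to 2 in YH to YL and 3 to 9 for the difference, with 0 members called in each. Members that did not overlap with a ratio over 2 numbered 2 in TH to YH and 2 in YH to YL with median-ratio scaling (14.8% and 9.82% of all genes), 4 and 3 with a ratio over 1.5 (31.9% and 23%), and 2 in YH to YL with all 8 libraries (7.31%).

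The replicate block gave 3 genes in TH to YH and 0 members in each comparison; the numbers did not pair the libraries (correlations of deviations 0.021, 0.073 and -0.062).

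Signs reversed as follows, and the cause was not tested. With YL2 in place of YL1, ACE was at -2.54 in TL to YL, -2.61 in YH to YL and 1.67 for the difference between breeds, MME at 3.48 and AGTR1 at -0.38 for that difference, and AGTR1 at 0.11 in YH to YL. With all 8 libraries ACE was at -0.82 and -0.88, and for the difference between breeds MME at 1.02 and AGTR1 at -0.085. Scaling by the FPKM sum, which moved the median of all genes by 0.63 in TL to YL, 0.58 in YH to YL and -0.73 for the difference, gave ATP6AP2 0.53, ENPEP 0.36 and MME 0.49 in TL to YL, AGTR1 0.19, ATP6AP2 0.61 and MME 0.55 in YH to YL, and AGTR1 -0.63 and ATP6AP2 -0.38 for the difference. AGT kept its sign under it, at 2.26 in TL to YL and -3.07 for the difference. Scaled reads gave ENPEP -0.092 in TH to TL and 0.085 in TL to YL. Median-ratio scaling gave MME 0.0018 in YH to YL. With 1 library left out, MME ranged from -0.31 to 0.19 in YH to YL (0.19 without YH2) and AGTR1 from -1e-04 (without TL1) to 0.22 in TL to YL.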
